A study of Mus musculus with 24 samples.

Results

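Grape-like hepatocyte organoids (Hep-Orgs) were compared with intermediate Hep-Orgs, 2 of the 3 shapes that mouse hepatocytes formed in their first culture before passaging. The comparison used 2 of the 24 libraries of the series, 1 for each shape. The third shape, round-like Hep-Orgs, also had 1 library and is given beside them where it helps. Of the 20729 genes listed for these libraries, 12303 had an FPKM (fragments per kilobase of gene, scaled by the fragments of the library) of at least 1 in the grape-like or the intermediate library. These were the genes compared.

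According to the study's methods, hepatocytes came from the livers of adult BALB/c mice. They were enriched by slow centrifugation, Percoll density and removal of cells that carry EpCAM, and then grown in Matrigel. The shared medium, Hep-Med, held EGF, HGF, FGF7, FGF10, R-spondin 1, the Wnt pathway activator CHIR99021 and the TGF-beta receptor inhibitor A83-01. DAPT, a Notch pathway inhibitor, and dexamethasone are described as additions to later cultures, although the recipe of the medium lists both. The groups shared strain and medium, and their labels differ by shape. The mice are described as wild-type, and the list of resources gives them as male. No treatment or time of picking is given for either group, nor are the number of organoids and animals in each pool. The study reports that over time in culture the Hep-Orgs moved from the grape-like through the intermediate to the round-like shape. Shape and time in culture can therefore not be told apart here.

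Hepatocytes are the main epithelial cells of the liver. They secrete most plasma proteins, clear drugs through cytochrome P450 and conjugation enzymes, and make bile acids, glucose and urea, under transcription factors such as HNF4A. Cholangiocytes line the bile ducts and carry keratins 7 and 19. Kupffer cells are the resident macrophages of the liver, sinusoidal endothelial cells line its capillaries, and stellate cells store retinoids and deposit collagen. In culture hepatocytes commonly lose adult functions and may take up features of ductal or fetal cells.

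With 1 library on each side there was no spread between replicates and no test, so every difference below describes 2 libraries and not the shapes in general. In bulk RNA, fewer cells of a type and less RNA per cell cannot be told apart. Differences are log2 ratios of FPKM + 1, grape-like over intermediate, so a positive ratio is a higher level in the grape-like library. Each pair of levels is given in the same order. A gene is called higher or lower where the log2 ratio was at least 1 or at most -1, a 2-fold difference.

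FPKM steps in genes of 1 exon placed the depth near 40030000 fragments in the grape-like and 40450000 in the intermediate library. A fragment on a 1 kb transcript was then worth about 0.025 FPKM. The libraries held 11768 and 11570 genes at 1 FPKM or more, and the 10 most abundant genes took 10.2% and 13.1% of the summed FPKM. Counting error was small: the estimated fragments put the 95% exact binomial interval of the log2 ratio, without a pseudocount, at -0.66 to -0.64 for Alb and 2.97 to 3.76 for the low gene Timd4. Such intervals cover counting error only, since amplified cDNA without molecular identifiers is not a count of independent molecules. Xist, which is expressed from the inactive X chromosome of females, was listed at 45.2 against 31.4 FPKM, and at 50.2 FPKM in the round-like library, which goes against the male sex given for the mice, and none of the 4 Y-linked genes looked for was in the table used here.

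Across the 12303 genes, 1223 (9.94%) were higher and 900 (7.32%) were lower in the grape-like library. The median log2 ratio was 0.04, with quartiles of -0.31 and 0.42. Past a 4-fold difference the balance turned, with 78 genes higher and 192 lower. The genes of liver cell types did not scatter evenly around this background. Among 254 hepatocyte genes past the 1 FPKM limit, 23 were higher and 71 lower. Among 42 genes of cholangiocytes and epithelial junctions, 0 were higher and 35 lower. The opposite held for other liver cells. Of 84 macrophage genes 66 were higher and 3 lower, of 27 endothelial genes 16 were higher and 0 lower, and of 36 stellate, fibroblast and mesothelial genes 29 were higher and 1 lower. Each gene that stood in the lists of 2 such classes was left out of these 5 counts.

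The grape-like library thus carried lower levels of many hepatocyte genes than the intermediate one, much lower levels of ductal epithelial genes, and higher levels of most macrophage and mesenchymal genes. The hepatocyte markers themselves were split. Hnf4a was lower (22.9 against 79.1 FPKM, log2 ratio -1.74). Alb (3649 against 5729 FPKM, log2 ratio -0.65) and Afp, the fetal counterpart of albumin (584 against 456 FPKM, log2 ratio 0.35), had ratios of opposite sign, both under the limit for a call.

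**Figure D1:**
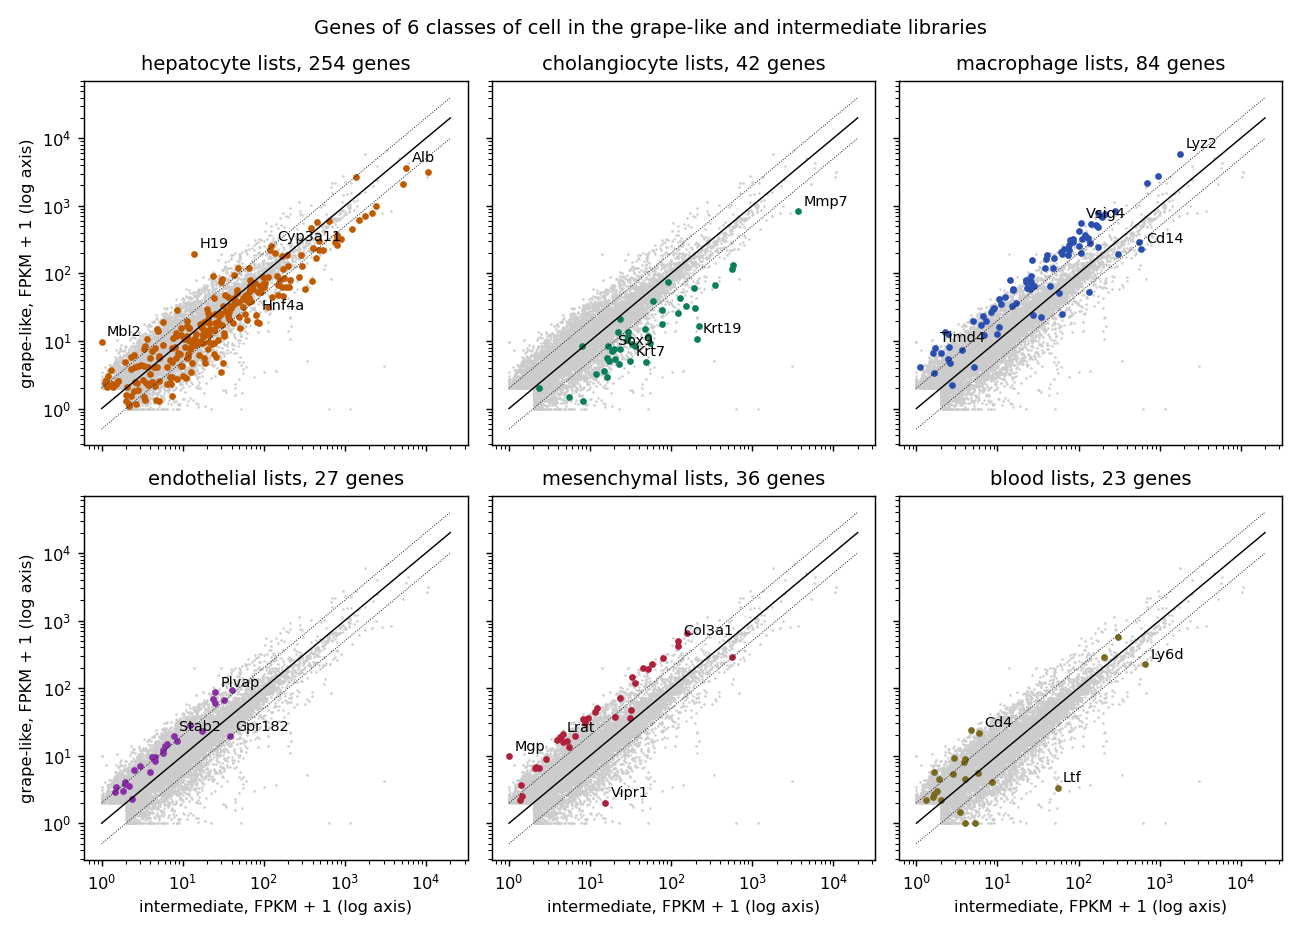
Each panel plots FPKM + 1 in the intermediate library (x axis, log scale) against FPKM + 1 in the grape-like library (y axis, log scale) for the 12303 genes compared (grey) and the genes of 1 class of cell (coloured). The solid line marks equal values and the dotted lines a 2-fold difference; macrophage, endothelial and mesenchymal genes lie mostly above the solid line, cholangiocyte genes below it, and the 254 hepatocyte genes on both sides.

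Plasma proteins, the secreted products that define the mature hepatocyte, were lower in the grape-like library as a group. Of the 28 listed, 27 passed 1 FPKM. There were 1 higher and 11 lower in the grape-like library, with a median log2 ratio of -0.67 against 0.04 over all genes, and 22 of the 27 had a ratio below 0. Their summed level was 10523 against 21379 FPKM. Albumin mRNA (Alb, Entrez 11657, chr5:90460870-90476602 in GRCm38) was the most abundant of them. The iron carrier transferrin (Trf) was at 2109 against 5272 FPKM (log2 ratio -1.32), haptoglobin (Hp), which binds free haemoglobin, at 782 against 2191 FPKM (log2 ratio -1.49), and fetuin-A (Ahsg) at 712 against 1750.0 FPKM (log2 ratio -1.30). The largest differences were those of angiotensinogen (Agt, 62.1 against 204 FPKM, log2 ratio -1.70), transthyretin (Ttr, a carrier of thyroxine, 263 against 788 FPKM, log2 ratio -1.58) and vitronectin (Vtn, 62.7 against 186 FPKM, log2 ratio -1.55). Trf, Hp and Ahsg thus differed more than 2-fold while Alb did not. In the other direction Serpina3k was at 1.6 against 0.12 FPKM (log2 ratio 1.22) and Azgp1 at 10.1 against 6.65 FPKM (log2 ratio 0.54). Serpina3k was a low gene, with an estimated 132 against 10 fragments. The alpha-1 antitrypsin genes Serpina1a to Serpina1e are near-identical copies, and reads may have been split among them. Their ratios all lay between -0.85 and -0.53. The vitamin D carrier Gc (349 against 806 FPKM, log2 ratio -1.21) and the copper carrier Cp (319 against 908 FPKM, log2 ratio -1.50) were lower in the grape-like library as well.

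Apolipoproteins had few calls. Among the 10 of 12 past 1 FPKM, 1 was higher and 1 lower, 10% each beside 9.94% and 7.32% of all genes. There were 7 ratios below 0 and the median log2 ratio was -0.28. Their summed level was nevertheless higher in the grape-like library (3156 against 2170.2 FPKM). Most of that difference came from Apoe, the ligand for clearance of remnant lipoproteins, at 2201 against 1205 FPKM (log2 ratio 0.87). Macrophages also make Apoe in quantity. Apoa1, the main protein of HDL, was at 474 against 384 FPKM (log2 ratio 0.30), and Apoa2, its partner, was the gene of the list with the largest ratio (90 against 22.4 FPKM, log2 ratio 1.96). Apoc2, the cofactor of lipoprotein lipase, was at 0.338 against 2.38 FPKM (log2 ratio -1.33), while Apoh and Apoc1 had ratios of -0.67 and -0.66. Apob, the structural protein of VLDL, differed little (42.1 against 53.8 FPKM, log2 ratio -0.35).

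Coagulation and complement genes, 23 of 27 past 1 FPKM, were 2 higher and 7 lower in the grape-like library. Their summed level of 2778 against 6252 FPKM was dominated by complement C3 (979.8 against 2389.9 FPKM, log2 ratio -1.28). The 3 chains of fibrinogen were lower together: Fga at 286 against 759 FPKM (log2 ratio -1.40), Fgb at 619.6 against 1474 FPKM (log2 ratio -1.25) and Fgg at 221 against 483 FPKM (log2 ratio -1.12). The complement regulators Cfi (79.6 against 209 FPKM, log2 ratio -1.38) and Cfb (170.0 against 442 FPKM, log2 ratio -1.37) were lower too. The thrombin precursor F2, by contrast, was near equal (37.2 against 48.2 FPKM, log2 ratio -0.37). Mbl2, the mannose-binding lectin of the complement system, was listed at 8.77 FPKM in the grape-like and at 0 in the intermediate library. C6 (1.76 against 0.182 FPKM, log2 ratio 1.22), a gene that Kupffer cells of the mouse also express, and C8b (1.17 against 0.21 FPKM, log2 ratio 0.84) were the next in that direction, all low genes.

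Acute phase genes split. Of 17 past the limit, 3 were higher and 5 lower, and the median log2 ratio was 0.29. Lipocalin 2 (Lcn2), an iron-siderophore binder made by stressed epithelium, was the most abundant gene of the whole intermediate library at 10729 FPKM and stood at 3154 FPKM in the grape-like library (log2 ratio -1.77). The LPS-binding protein Lbp (45.8 against 173 FPKM, log2 ratio -1.90) and Crp (19.6 against 61.3 FPKM, log2 ratio -1.60) were lower as well. Higher were serum amyloid Saa3 (2716 against 1357 FPKM, log2 ratio 1.00), which macrophages also produce, the iron hormone hepcidin (Hamp, 93.8 against 41.9 FPKM, log2 ratio 1.15) and the IL-6 receptor Il6ra (5.11 against 1.53 FPKM, log2 ratio 1.27). Saa1 and Saa2, near-identical copies made mainly by hepatocytes, had small ratios of 0.20 and 0.38.

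Among the transcription factors of the hepatocyte, 22 of 23 passed 1 FPKM. There were 2 higher and 12 lower in the grape-like library, and the median log2 ratio of -1.25 was the lowest of the 15 hepatocyte lists. The lower ones include most of the liver-enriched network. The corepressor SHP (Nr0b2), which acts in bile acid feedback, was at 5.42 against 23.1 FPKM (log2 ratio -1.91), and the pioneer factor Foxa2 was at 2.52 against 11.8 FPKM (log2 ratio -1.86). Hnf4a (chr2:163506811-163572907), the central regulator of hepatocyte identity, had a ratio of -1.74. Foxa1 (-1.74), Onecut1 (-1.65), Prox1 (-1.42), Foxa3 (-1.41) and Nr5a2 (-1.36) had similar ratios. Foxa2 and Onecut1 are also expressed in bile duct cells.

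Cebpa, which marks mature hepatocytes, differed less (29.8 against 38 FPKM, log2 ratio -0.34), as did the bile acid receptor Nr1h4 (-0.37). Cebpb was the most abundant factor of the list and was higher in the grape-like library (82.2 against 29.4 FPKM, log2 ratio 1.46). Gata4 was higher by more (18.3 against 4.73 FPKM, log2 ratio 1.75). Cebpb is also a factor of macrophages and Gata4 one of stellate and sinusoidal endothelial cells, whose markers were higher in the same library. The share of their signal that came from such cells was not tested. The LXR-alpha gene Nr1h3, which serves both hepatocytes and Kupffer cells, was at 26.2 against 16.6 FPKM (log2 ratio 0.63). The constitutive androstane receptor Nr1i3 did not reach 1 FPKM in either library.

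Cytochrome P450 enzymes, which oxidise drugs, steroids and fatty acids, were balanced. Of 24 listed, 21 passed 1 FPKM, with 4 higher and 5 lower in the grape-like library and a median of 0.03. Their sum was 721 against 677 FPKM. Members of the same family could differ. Among Cyp3a genes, Cyp3a13 was lower (0.479 against 2.3 FPKM, log2 ratio -1.16) and Cyp3a25 near equal (log2 ratio 0.03). Cyp3a11, the main drug-metabolising enzyme of mouse liver, was the most abundant and higher in the grape-like library (251 against 123 FPKM, log2 ratio 1.02), and Cyp2c29 was at 199.5 against 136 FPKM (log2 ratio 0.55). The bile acid enzyme Cyp27a1 (12.9 against 3.99 FPKM, log2 ratio 1.48), the fatty acid hydroxylase Cyp4a10 (7.39 against 2.47 FPKM, log2 ratio 1.27) and the vitamin D 25-hydroxylase Cyp2r1 (1.39 against 0.0851 FPKM, log2 ratio 1.14) were higher as well. All of the Cyp2d genes listed were lower: Cyp2d22 (3.76 against 30.5 FPKM, log2 ratio -2.73), Cyp2d10 (30.4 against 111 FPKM, log2 ratio -1.83), Cyp2d9 (-1.19) and, under the limit, Cyp2d26 (-0.78). Cyp4f14 was at 0.553 against 6.29 FPKM (log2 ratio -2.23). Cyp1a2 (86.8 against 111 FPKM, log2 ratio -0.36) was near the background. Cyp2d, Cyp2c and Cyp3a genes have close copies, and reads may have been divided among them.

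The promoter of Cyp3a11 is shown for its match to letters bound by HNF4 (CAAAGTCCA, in capitals), because Hnf4a and Cyp3a11 differed in opposite directions. The letters were searched on both strands. The sequence is that of RefSeq (GRCm38.p6), 250 bases before to 50 bases after the start of the gene, 5′ to 3′ on the strand of the gene.
Cyp3a11 (chr5:145879805-145880104, minus strand): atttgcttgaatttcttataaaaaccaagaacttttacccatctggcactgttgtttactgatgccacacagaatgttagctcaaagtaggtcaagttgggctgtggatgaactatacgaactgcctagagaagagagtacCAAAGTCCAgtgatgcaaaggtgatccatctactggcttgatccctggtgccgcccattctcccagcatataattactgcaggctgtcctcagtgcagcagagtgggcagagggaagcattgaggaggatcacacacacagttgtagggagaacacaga
The match began 109 bases before the start of the gene. The letters were in 3 of 20 P450 promoters (15%; Cyp2c70, Cyp3a11 and Cyp8b1, of which Cyp8b1 was not in the table of levels), in 2 of 23 promoters of conjugation enzymes and in 0.555% of all 27025 genes with a promoter. In the other 13 hepatocyte lists 0 promoters held them, including those of 22 plasma proteins. A match of letters is not a shown binding site. Cyp2c70, an enzyme of rodent bile acid synthesis, was near equal (24.7 against 27.7 FPKM, log2 ratio -0.16).

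Conjugation enzymes, which attach glutathione, glucuronic acid or sulfate, had ratios below 0 in all cases but 1. Of 26 listed, 20 passed 1 FPKM, with 0 higher and 10 lower in the grape-like library and a median of -0.99. Their sum was 1007 against 2504 FPKM. Glutathione transferases made up most of the sum: Gstm1 was at 368 against 790.3 FPKM (log2 ratio -1.10), Gstp1 at 221 against 533 FPKM (log2 ratio -1.27), and Gsta4, which clears lipid aldehydes, at 76.6 against 390.1 FPKM (log2 ratio -2.33). Gsta2 (0.271 against 4.05 FPKM, log2 ratio -1.99) and Gstt1 (46.8 against 148 FPKM, log2 ratio -1.64) followed. The bilirubin glucuronosyltransferase Ugt1a1 had a ratio of -0.93. The 1 gene with a ratio above 0 was Baat, which joins bile acids to amino acids (1.35 against 0.495 FPKM, log2 ratio 0.65). Levels of the Gst and Ugt2b genes share the limit of close copies.

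Genes of the urea cycle and of amino acid breakdown were low in both libraries: 23 of 29 passed 1 FPKM, and those that did not include arginase 1 (Arg1). There were 2 higher (8.7%) and 3 lower (13%) in the grape-like library, beside 9.94% and 7.32% of all genes. The lysine-degrading enzyme Aass was at 1.82 against 9.85 FPKM (log2 ratio -1.94), and Nags, which makes the activator of the urea cycle, at 3.26 against 8.51 FPKM (log2 ratio -1.16). Glutamine synthetase (Glul) was at 220.4 against 117 FPKM (log2 ratio 0.91), below the limit. Histidase (Hal, 2.74 against 0.294 FPKM, log2 ratio 1.53) and tryptophan dioxygenase (Tdo2, 1.99 against 0.197 FPKM, log2 ratio 1.32) were higher. Cps1, the entry enzyme of the urea cycle, was barely past the filter (1.05 against 0.171 FPKM, log2 ratio 0.81).

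The glucose genes, 13 of 16 past the limit, were 1 higher (7.69%) and 2 lower (15.4%) in the grape-like library, beside 9.94% and 7.32% of all genes. Glucose-6-phosphatase (G6pc), the last step of glucose release, was lower (0.321 against 3.65 FPKM, log2 ratio -1.82). Liver glycogen phosphorylase (Pygl) was higher (27.5 against 7.42 FPKM, log2 ratio 1.76). Pck1 and Gys2 did not reach 1 FPKM in either library, so these parts of adult glucose handling were under the filter in both.

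Of 19 genes of fatty acid oxidation and ketone synthesis past the limit, 0 were higher and 1 was lower (5.26%, under the 7.32% of all genes), with 17 ratios below 0 and a median of -0.48. Fabp1, the abundant fatty acid carrier of the hepatocyte, was near equal (589.8 against 628 FPKM, log2 ratio -0.09). Genes of cholesterol and fatty acid synthesis had a median of -0.32. Scd1 (181 against 166 FPKM, log2 ratio 0.13) and the sterol enzymes were within 2-fold. Malic enzyme Me1 was lower (21.3 against 48.8 FPKM, log2 ratio -1.16), and Thrsp, a lipogenic factor, was higher (14 against 3.8 FPKM, log2 ratio 1.64).

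Transporters of bile acids and organic ions went both ways, with 15 of 20 past the limit, 4 higher and 5 lower in the grape-like library. The canalicular bile salt pump Abcb11 (3.87 against 0.93 FPKM, log2 ratio 1.33) and the phospholipid pump Abcb4 (6.55 against 2.33 FPKM, log2 ratio 1.18) were higher. So was the basolateral carrier of organic anions Slco1b2 (4.81 against 1.29 FPKM, log2 ratio 1.34). Lower were the drug pump Abcb1a (2.5 against 28.4 FPKM, log2 ratio -3.07), the sterol exporter pair Abcg5 (4.64 against 17.1 FPKM, log2 ratio -1.68) and Abcg8 (-1.44), the lipid flippase Atp8b1 (1.73 against 7.39 FPKM, log2 ratio -1.62) and Abcc4 (8.4 against 23.1 FPKM, log2 ratio -1.36). Abcc3 (40.5 against 55.6 FPKM, log2 ratio -0.45) was the most abundant, followed by Abcc2, the canalicular conjugate pump (19.9 against 36.1 FPKM, log2 ratio -0.83). The bile acid importer Slc10a1 did not reach 1 FPKM in either library. The uptake and bile-forming carriers of the adult hepatocyte that were higher in the grape-like library were thus all under 10 FPKM there, while those lower reached 28.4 FPKM.

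Zonation genes did not point to 1 side of the lobule. The pericentral list, 15 of 17 past the limit, had 2 higher and 6 lower in the grape-like library, and the periportal list, 12 of 16 past it, had 2 higher and 4 lower in the grape-like library. The pericentral genes that were lower were mostly feedback targets of Wnt: Rnf43 (4.77 against 24.8 FPKM, log2 ratio -2.16), Lgr5 (1.43 against 5.87 FPKM, log2 ratio -1.50), Axin2 (5.14 against 14.8 FPKM, log2 ratio -1.36) and Znrf3 (-1.06). The enzymes of that zone differed: Rgn, which acts in calcium balance and vitamin C synthesis, had a ratio of -0.76, Glul was at 0.91, Cyp1a2 at -0.36, Cyp27a1 at 1.48 and Oat, ornithine aminotransferase, at 72.5 against 28.7 FPKM (log2 ratio 1.31). Among periportal genes the transporter of immunoglobulin A, Pigr (57.4 against 317 FPKM, log2 ratio -2.45), E-cadherin (Cdh1, 36.6 against 174 FPKM, log2 ratio -2.22) and Aldh1b1 (3.73 against 17.8 FPKM, log2 ratio -1.99) were lower, and Hal and the lysosomal protease Ctsc (119 against 46.7 FPKM, log2 ratio 1.33) were higher. Cdh1 and Pigr are also expressed by bile duct epithelium. Ctsd and Ctsb, lysosomal proteases of the macrophage list, had ratios of 1.55 and 1.64. The share of the Ctsc level that came from macrophages was not tested.

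Fetal liver genes had no common direction either (1 higher and 3 lower of 14). H19, an imprinted RNA of the fetal liver, was at 195 against 12.9 FPKM (log2 ratio 3.82), with 3.43 FPKM in round-like organoids, the largest log2 ratio in that direction outside predicted genes and pseudogenes. Its imprinted neighbour Igf2 was at 16.5 against 29.5 FPKM (log2 ratio -0.80). Dlk1, a surface protein of hepatoblasts, was at 18.4 against 10.4 FPKM (log2 ratio 0.77) and Igf2bp1 at 1.27 against 0.352 FPKM (log2 ratio 0.75). The oncofetal genes Gpc3 (18 against 80.6 FPKM, log2 ratio -2.11), Tspan8 (28.4 against 121 FPKM, log2 ratio -2.06) and Bex4 (14.6 against 50.5 FPKM, log2 ratio -1.72) were lower.

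**Figure D2:**
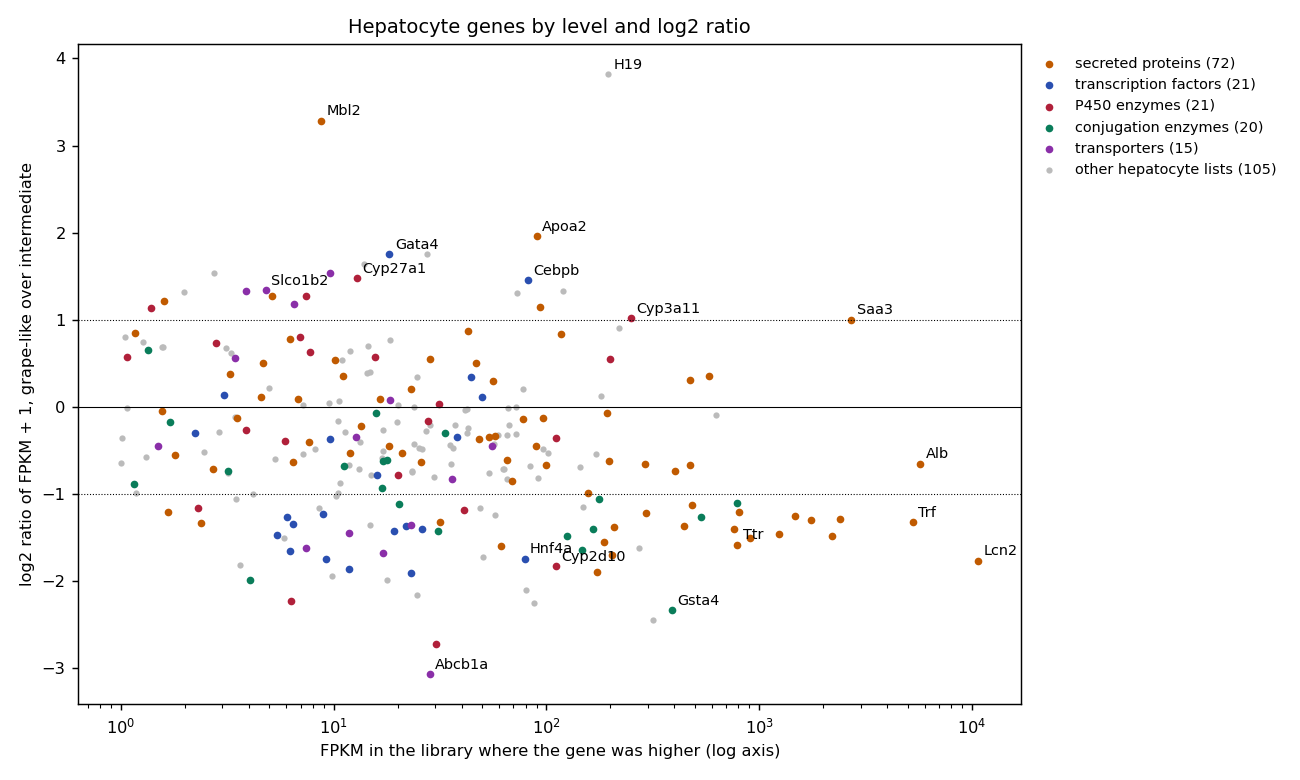
Each of the 254 hepatocyte genes past 1 FPKM is plotted by its FPKM in the library where it was higher (x axis, log scale) and its log2 ratio of FPKM + 1, grape-like over intermediate (y axis); colours mark groups of lists and dotted lines the limits of a call. Genes above 1 had a median level of 12.9 FPKM in their higher library and genes below -1 a median of 48.8 FPKM.

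The hepatocyte genes higher in the grape-like library were on the whole less abundant than those lower in it, with median levels of 12.9 and 48.8 FPKM in the library where each was higher. Near the filter, Apoa4 (0.99 against 0.238 FPKM) and Uroc1 (0.975 against 0.623 FPKM) lay just outside and Gls2 (0.281 against 1.01 FPKM) and Slc2a2 (0.573 against 1.01 FPKM) just inside. Levels were also set against Alb within each library. Cyp3a11 stood at 6.87% of the level of Alb in the grape-like and 2.15% in the intermediate library, and Cyp2c29 at 5.47% and 2.38%. Afp was at 16% and 7.97%, and Apoa1 at 13% and 6.7%. Against Alb these genes were therefore higher in the grape-like library. The reverse held for Trf (57.8% and 92%), Hp (21.4% and 38.2%), Ttr (7.2% and 13.8%) and Hnf4a (0.627% and 1.38%). These genes were picked as examples from 1 library a side. Trf, Hp and Ttr are also made outside hepatocytes.

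Cholangiocyte markers differed the most of the cell type lists. Of 27 listed, 25 passed 1 FPKM, with 0 higher and 22 lower in the grape-like library, a median log2 ratio of -2.12, and a sum of 2014 against 8415 FPKM. Keratin 19 (Krt19, chr11:100140810-100145926), the classical marker of bile ducts, was at 9.86 against 208 FPKM (log2 ratio -4.26), keratin 7 (Krt7) at 4.05 against 29.9 FPKM (log2 ratio -2.61) and Sox9, a factor of ductal and progenitor cells, at 6.22 against 17.7 FPKM (log2 ratio -1.37). The most abundant were the matrix protease Mmp7 (835 against 3692 FPKM, log2 ratio -2.14) and osteopontin (Spp1, 796 against 2899 FPKM, log2 ratio -1.86), followed by the annexin Anxa13 (15.6 against 219 FPKM, log2 ratio -3.73). The mucin Muc1 was at 3.91 against 48.5 FPKM (log2 ratio -3.33), and Epcam, the surface protein used to remove ductal cells before culture, at 29.7 against 197 FPKM (log2 ratio -2.69). Levels above 0 remained in the grape-like library for most of them, led by Mmp7 and Spp1. The 1 gene with a positive ratio was Pkd2, a broadly expressed channel of the primary cilium (7.44 against 6.89 FPKM, log2 ratio 0.10).

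Keratins and junction genes of simple epithelium followed, with 0 higher and 16 lower in the grape-like library among 20 of 23 and a median of -1.64. Krt18 (134 against 571 FPKM, log2 ratio -2.08) and Krt8 (115 against 557 FPKM, log2 ratio -2.27) are the keratin pair of hepatocytes themselves and of ducts. Cldn2, a pore-forming claudin, was at 67 against 342 FPKM (log2 ratio -2.33), Cldn3 at 25.1 against 119 FPKM (log2 ratio -2.20) and F11r, a junctional adhesion molecule, at 42.8 against 126 FPKM (log2 ratio -1.54). All 20 ratios were below 0, down to the smallest, that of Cldn1 (-0.21). The keratins of the hepatocyte thus differed more than albumin did. Clusterin (Clu), a secreted chaperone of injured epithelium and the second most abundant gene of the intermediate library, was at 2649 against 10436 FPKM (log2 ratio -1.98).

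**Figure D3:**
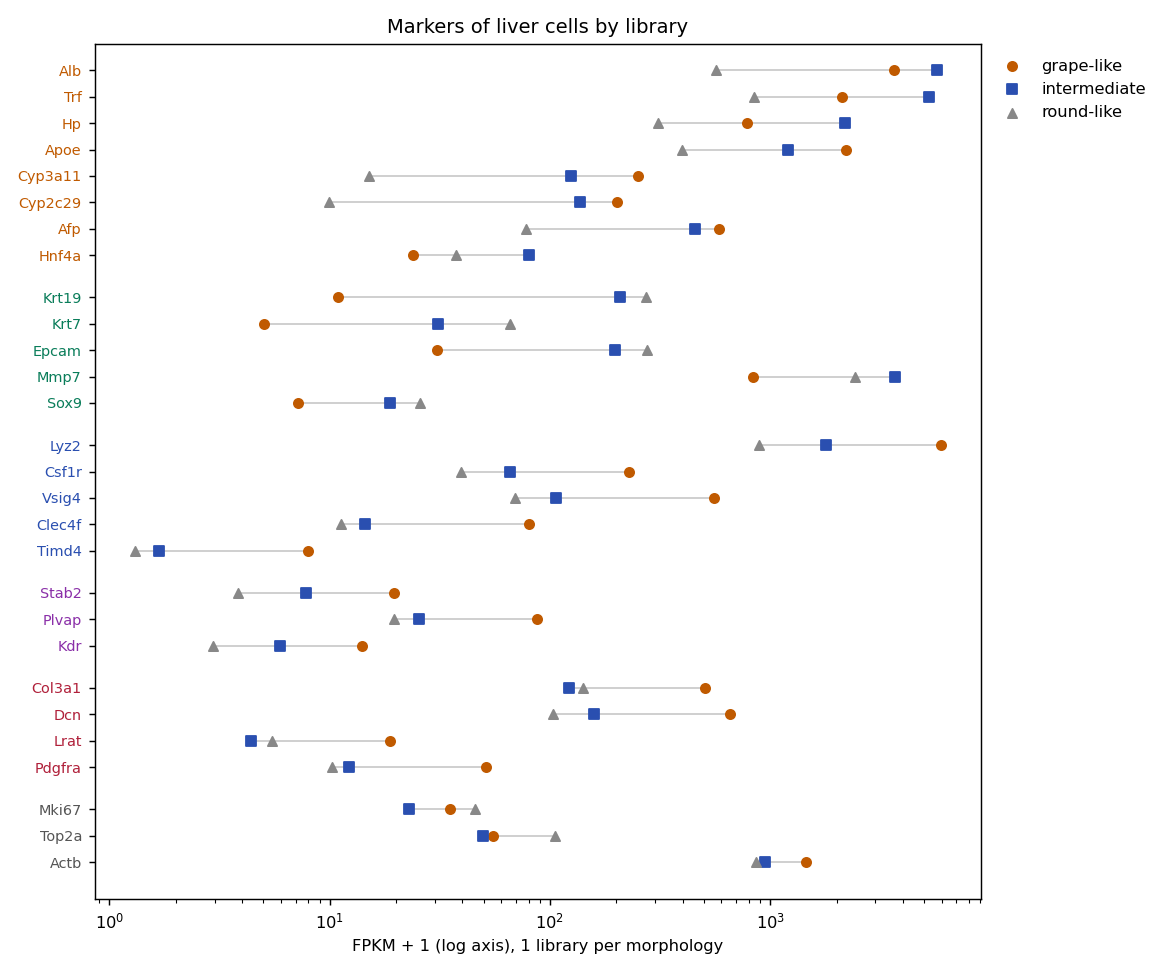
FPKM + 1 (x axis, log scale) in 1 library of each shape (grape-like, intermediate, round-like), for markers grouped from top to bottom as hepatocyte, cholangiocyte, macrophage, endothelial, mesenchymal and cell state genes. Alb was at 3649, 5729 and 565 FPKM and Krt19 at 9.86, 208 and 272 FPKM in that order, and all macrophage, endothelial and mesenchymal markers shown were highest in the grape-like library.

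Macrophage genes showed the opposite pattern at a high level. Markers of Kupffer cells passed the filter in 17 of 18 cases, with 13 higher and 0 lower in the grape-like library, a median of 1.70 and a sum of 2379 against 677 FPKM. Cd5l, a secreted scavenger protein, was the most abundant (695 against 187 FPKM, log2 ratio 1.89), then Vsig4, a complement receptor (555 against 105 FPKM, log2 ratio 2.38), and the scavenger receptor Marco (331 against 130.3 FPKM, log2 ratio 1.34). The haemoglobin scavenger Cd163 (158 against 25.9 FPKM, log2 ratio 2.56) and the lectin Clec4f (79.3 against 13.4 FPKM, log2 ratio 2.47), which marks Kupffer cells in the mouse, had the largest ratios. Timd4, a marker of resident Kupffer cells of embryonic origin, was at 6.99 against 0.683 FPKM (log2 ratio 2.25). None of the 17 ratios was below 0, and the lowest was that of Nr1h3, which hepatocytes share (0.63).

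Markers common to macrophages pointed the same way: 38 of 41 passed the filter, with 32 higher and 1 lower in the grape-like library and a median of 1.68. Their sum of 20645 against 7473 FPKM came to 5.14% and 1.75% of all FPKM. Lysozyme 2 (Lyz2, chr10:117277541-117282272) stood at 5942 against 1792 FPKM (log2 ratio 1.73) and was the second most abundant gene of the grape-like library, above Alb. The lysosomal proteases cathepsin D (Ctsd, 2777 against 945 FPKM, log2 ratio 1.55) and cathepsin B (Ctsb, 2184 against 699 FPKM, log2 ratio 1.64) followed. Receptors and signalling genes had like ratios, from the CSF1 receptor Csf1r (228 against 64.7 FPKM, log2 ratio 1.80) to the pan-leukocyte Ptprc (1.77), Adgre1 (1.61) and the master factor PU.1 (Spi1, 120.2 against 38 FPKM, log2 ratio 1.64). The complement subunits C1qa (771 against 172 FPKM, log2 ratio 2.16), C1qb (1.86) and C1qc (1.79) were higher as well. Cd14, the LPS co-receptor, was the exception (232 against 587 FPKM, log2 ratio -1.34), and hepatocytes and other epithelia also express it. Antigen presentation genes were low, with Cd74 at 15 against 9.43 FPKM and H2-Aa and H2-Eb1 under 1 FPKM.

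PU.1 drives many macrophage genes, and 2 promoters are printed for their match to its letters (GAGGAAGT or the reverse, in capitals).
C1qc (chr4:136892865-136893164, minus strand): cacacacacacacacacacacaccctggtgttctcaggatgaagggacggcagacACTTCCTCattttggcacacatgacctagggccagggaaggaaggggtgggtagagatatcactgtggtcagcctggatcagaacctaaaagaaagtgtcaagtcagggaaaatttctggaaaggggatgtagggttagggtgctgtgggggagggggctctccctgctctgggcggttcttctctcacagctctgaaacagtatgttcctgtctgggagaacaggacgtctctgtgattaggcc
Ctss (chr3:95526536-95526835, plus strand): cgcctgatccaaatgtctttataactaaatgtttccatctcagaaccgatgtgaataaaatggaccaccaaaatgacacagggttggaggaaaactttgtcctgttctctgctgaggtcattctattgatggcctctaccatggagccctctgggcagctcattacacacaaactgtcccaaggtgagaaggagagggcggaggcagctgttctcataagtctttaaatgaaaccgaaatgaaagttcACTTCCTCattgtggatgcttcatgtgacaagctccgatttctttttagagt
The match began 195 bases before the start of C1qc and 2 bases before that of Ctss, a cathepsin of antigen-presenting cells (429 against 102 FPKM, log2 ratio 2.07). The letters were in 4 of 28 macrophage marker promoters (14.3%; C1qc, Ctss, Fcgr4 and Cd53), in 0 of 16 promoters of Kupffer cell markers and in 3.69% of all genes with a promoter. They were also in 3 of 17 promoters of cholangiocyte markers (17.6%). These 4 genes had ratios from 1.70 to 2.07.

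Genes of lipid-associated macrophages were higher in 11 of 15 cases and lower in 2. The proton pump subunit Atp6v0d2 (12.7 against 1.28 FPKM, log2 ratio 2.58), galectin 3 (Lgals3, 311 against 76.8 FPKM, log2 ratio 2.00), the elastase Mmp12 (22.5 against 5.71 FPKM, log2 ratio 1.81), Gpnmb (1.78) and Trem2 (1.75) were higher. Spp1, Cd9 (51.4 against 132 FPKM, log2 ratio -1.35) and Fabp5 (289 against 550.5 FPKM, log2 ratio -0.93), which epithelial cells also make, had ratios below 0. Among chemokines and cytokines, 13 of 21 were higher and 1 was lower. Ccl6 (546 against 142 FPKM, log2 ratio 1.94), Ccl2 (493 against 174 FPKM, log2 ratio 1.49), Ccl8 (184 against 40.3 FPKM, log2 ratio 2.16), Il1b (5.72 against 0.59 FPKM, log2 ratio 2.08) and Il1a (40.1 against 9.46 FPKM, log2 ratio 1.98) were higher. The neutrophil attractant Cxcl1 (192 against 304 FPKM, log2 ratio -0.66) and Tnf (23.3 against 26.1 FPKM, log2 ratio -0.15) were within 2-fold, and the IL-1 receptor antagonist Il1rn was lower (24.2 against 62 FPKM, log2 ratio -1.32). The iron storage genes Ftl1 (6815 against 3322 FPKM, log2 ratio 1.04), the most abundant gene of the grape-like library, and Fth1 (3917 against 2506 FPKM, log2 ratio 0.64) are high in macrophages and in hepatocytes.

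Endothelial markers were present at lower levels and were higher in the grape-like library. Of 30, 28 passed 1 FPKM, with 16 higher and 0 lower in the grape-like library and a median of 1.07. Their sum was 587 against 269 FPKM. The scavenger receptor Stab1, which some macrophages share, was the most abundant (91.8 against 39.6 FPKM, log2 ratio 1.19). The fenestral diaphragm protein Plvap (86.1 against 24.3 FPKM, log2 ratio 1.78), the TGF-beta co-receptor endoglin (Eng, 67 against 22.7 FPKM, log2 ratio 1.52) and the hyaluronan receptor Stab2 (18.6 against 6.8 FPKM, log2 ratio 1.33) had the largest ratios. The VEGF receptor Kdr was at 13 against 4.97 FPKM (log2 ratio 1.23) and Lyve1 at 2.49 against 0.485 FPKM (log2 ratio 1.23). The ratios sat close together, with quartiles of 0.93 and 1.23, lower than those of macrophage markers. Gpr182 (18.3 against 37.3 FPKM, log2 ratio -0.99) and Oit3 (1.28 against 1.37 FPKM, log2 ratio -0.06) were the 2 with ratios below 0. Flt1 and Vwf did not reach 1 FPKM.

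Markers of stellate cells and fibroblasts passed in 33 of 38 cases, with 26 higher and 1 lower in the grape-like library, a median of 1.80 and a sum of 3553 against 1449 FPKM. Decorin (Dcn), a matrix proteoglycan, was the most abundant (658 against 157 FPKM, log2 ratio 2.06). Gas6, a ligand of the receptor Axl, came next but was below 0 (285 against 558 FPKM, log2 ratio -0.97), and the fibrillar collagen Col3a1 was at 502 against 120.4 FPKM (log2 ratio 2.05). Matrix Gla protein (Mgp) was listed at 8.78 FPKM in the grape-like and at 0 in the other libraries. Hepatocyte growth factor (Hgf, 19.8 against 3.63 FPKM, log2 ratio 2.17) and collagen VI (Col6a1, 197 against 43.6 FPKM, log2 ratio 2.15) followed. Genes of quiescent stellate cells were among them: Lrat, which esterifies retinol, was at 17.9 against 3.4 FPKM (log2 ratio 2.10), Reln at 46.4 against 31.3 FPKM (log2 ratio 0.55) and Rgs5, a pericyte gene, at 1.93. Those of contractile myofibroblasts stayed low, with Acta2 at 1.19 against 0.385 FPKM and Tagln and Myh11 under 1 FPKM. Vipr1 was the 1 called lower (1.02 against 14.4 FPKM, log2 ratio -2.93). Of 7 mesothelial genes only Wt1 (18 against 3.21 FPKM, log2 ratio 2.17), Gpm6a (5.85 against 1.14 FPKM, log2 ratio 1.68) and Igfbp5 (5.52 against 1.36 FPKM, log2 ratio 1.47) passed, and all 3 were higher, while Msln, Upk3b, Lrrn4 and Muc16 were under 1 FPKM.

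Blood lineages other than macrophages were scarce. Of 54 such genes listed, 23 passed 1 FPKM, with 7 higher and 6 lower. The T cell receptor genes Cd3e, Cd3d and Cd3g, the B cell genes Cd79a and Ms4a1, the neutrophil genes S100a9 and Mpo and the globins Hba-a1 and Hbb-bs were all under 1 FPKM. Lck was at 0.483 against 2.46 FPKM (log2 ratio -1.22) and Cd4, which some macrophages also carry, at 20.9 against 4.89 FPKM (log2 ratio 1.90). The dendritic cell genes Batf3 (4.77 against 0.626 FPKM, log2 ratio 1.83) and Clec9a (7.8 against 2.99 FPKM, log2 ratio 1.14) were higher, and Ly6d, which some epithelia express, was lower (226 against 658 FPKM, log2 ratio -1.54). Cd22 (8.24 against 1.91 FPKM, log2 ratio 1.67) and the histamine enzyme Hdc (23 against 3.68 FPKM, log2 ratio 2.36) were higher. Ltf, lactoferrin, which glandular epithelium also secretes, was lower (2.33 against 54.1 FPKM, log2 ratio -4.05). Ly6g and the platelet gene Ppbp were listed at 0 in the grape-like library and at 4.34 and 2.97 FPKM in the intermediate one. Alas2, of haem synthesis in red cells, was at 4.33 against 1.82 FPKM (log2 ratio 0.92).

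**Figure D4:**
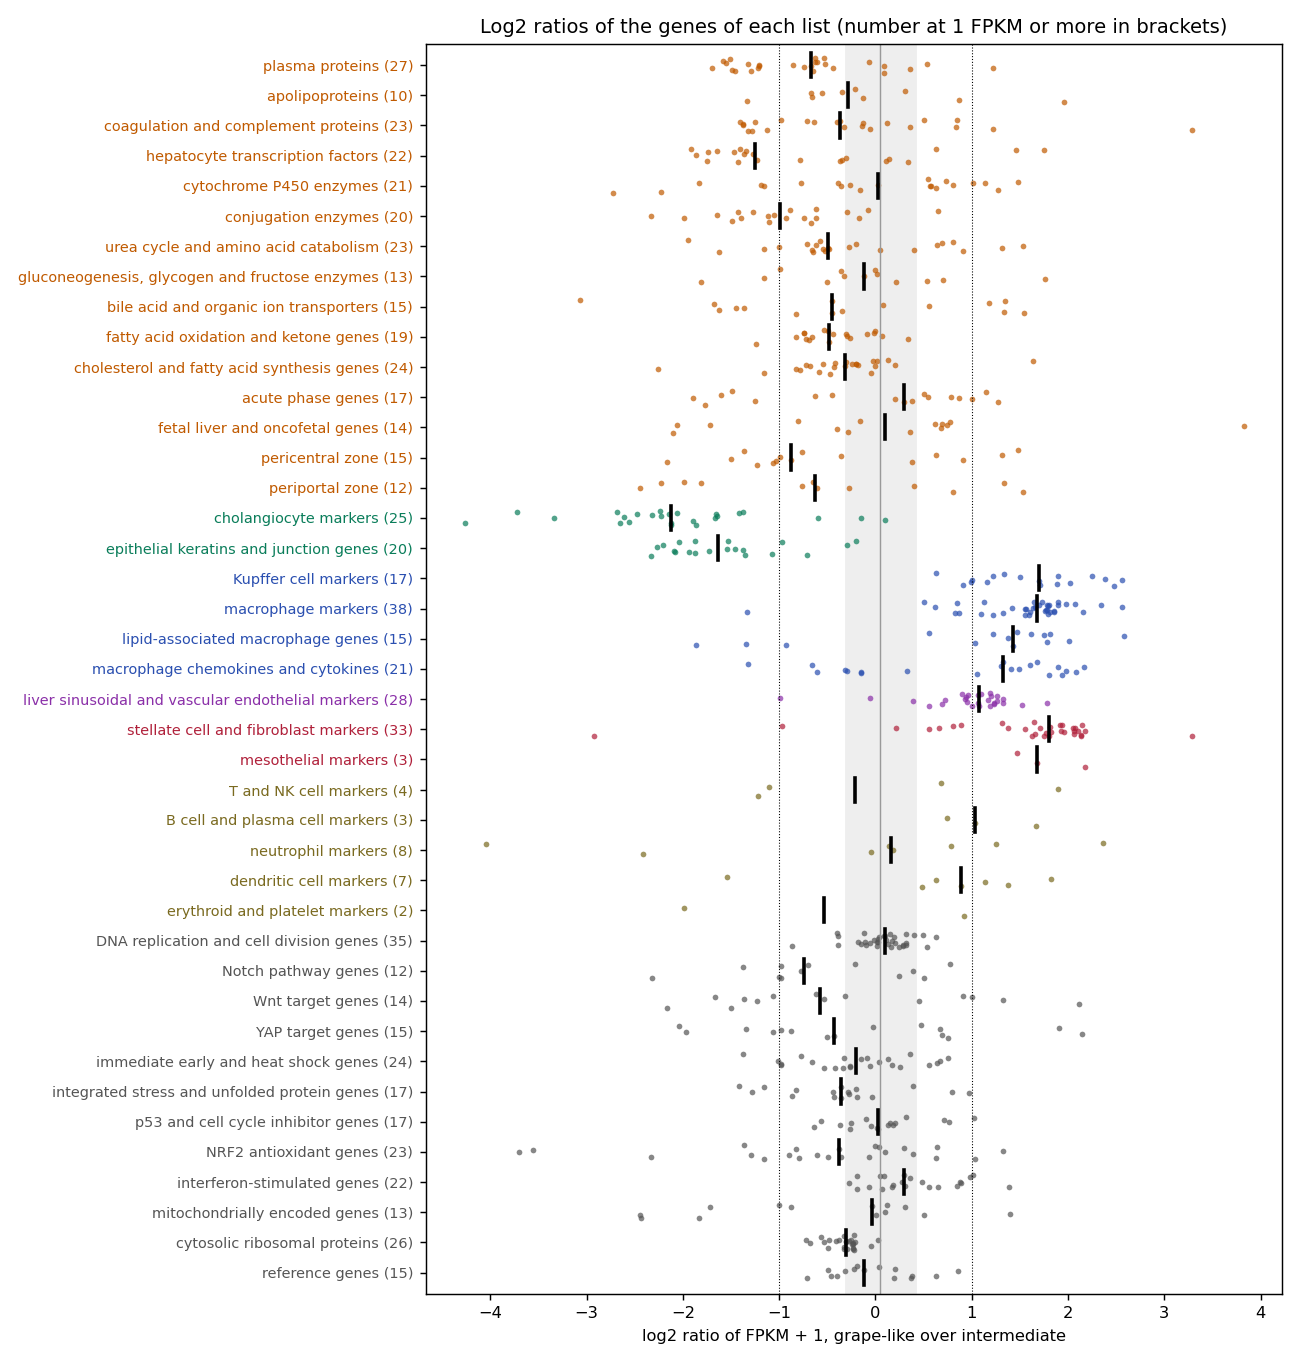
Log2 ratios of FPKM + 1, grape-like over intermediate (x axis), of the genes past 1 FPKM in each list (1 point a gene, vertical jitter only). Black bars are list medians, the grey band and line the quartiles and median of all 12303 genes, and dotted lines the limits of a call; cholangiocyte and junction lists lie to the left, and macrophage, endothelial, stellate and mesothelial lists to the right.

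The genes with the lowest ratios lay mostly outside the lists of these cell types. Among all genes, the lowest ratios were those of Reg3g (0 against 1162 FPKM, log2 ratio -10.18), Reg3b (3.23 against 3075 FPKM, log2 ratio -9.51) and Dmbt1 (0 against 631 FPKM, -9.30). Reg3g and Reg3b encode antimicrobial lectins of the gut and pancreas, and Dmbt1 encodes a secreted scavenger protein of mucosa. Where a gene is listed at 0 the ratio is set by the pseudocount. Next came galectin 4 (Lgals4, 4.09 against 339.8 FPKM, log2 ratio -6.07), the mucus protein disulfide isomerase Agr2 (0 against 50.9 FPKM), Lypd8 (2.63 against 139 FPKM, log2 ratio -5.27), Ppp1r1b (0.685 against 53.4 FPKM, log2 ratio -5.01), the mucin Muc13 (2.49 against 101 FPKM, log2 ratio -4.87), Tspan1 (0.591 against 42.8 FPKM, log2 ratio -4.78) and the trefoil factor Tff3 (1.96 against 75.2 FPKM, log2 ratio -4.68). Lypd8l, Serpinb1a, Fxyd3, Krt19 and Clec2h completed the 15, with ratios from -4.50 to -4.26. Many of these are known from intestinal epithelium.

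A textbook list of 42 intestinal genes, drawn up after these values had been seen, gave 26 genes past 1 FPKM, of which 0 were higher and 24 lower in the grape-like library. Since the list was prompted by the same values, its count describes the pattern and adds no support. The intestinal factor Cdx2 was at 0.0932 against 17.8 FPKM (log2 ratio -4.10), and the brush border and adhesion genes Vil1 (12.5 against 83.2 FPKM, log2 ratio -2.64), Cdh17 (4.75 against 50.2 FPKM, log2 ratio -3.15), Gpa33 (0.426 against 11.5 FPKM, log2 ratio -3.13) and Cdhr5 (3.2 against 34.2 FPKM, log2 ratio -3.06) were lower too. Other defining genes of the gut were absent or nearly so. Cdx1, Muc2, Sis, Lct, Alpi, Zg16, Clca1, Atoh1 and Chga were under 1 FPKM in both libraries. The pancreatic factor Pdx1 was listed at 0 and 2.23 FPKM. The pattern was mostly that of the intermediate library alone. Reg3b stood at 44.5 FPKM, Lgals4 at 5.56 FPKM and Tff3 at 0.0542 FPKM in the round-like library, and the summed level of the list, in the order grape-like, intermediate, round-like, was 79.8, 5928 and 259 FPKM. Olfm4 was an exception, at 0, 7.43 and 72.2 FPKM. Whether a few organoids of the intermediate pool carried these genes was not tested.

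The 15 genes with the largest ratios in the other direction were H19, Mgp, Mbl2, Cd300ld5 (9.45 against 0.55 FPKM, log2 ratio 2.75), the beta-glucan receptor Clec7a (195 against 28.6 FPKM, log2 ratio 2.73), the retinoic acid enzyme Aldh1a2 (6.28 against 0.142 FPKM, log2 ratio 2.67), Atp6v0d2, Cd163, Clec4f, Ear1 (16.6 against 2.29 FPKM, log2 ratio 2.42), the Wnt enhancer Rspo3 (56.9 against 9.85 FPKM, log2 ratio 2.42), the peptide hormone Apln (29.8 against 4.81 FPKM, log2 ratio 2.41), Vsig4, Hdc and Lyz1 (11.5 against 1.47 FPKM, log2 ratio 2.34). Of these 15, 5 are on the macrophage lists. H19 and Mbl2 are on hepatocyte lists, Mgp is on the stellate cell and fibroblast list and Hdc on the neutrophil list.

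**Figure D5:**
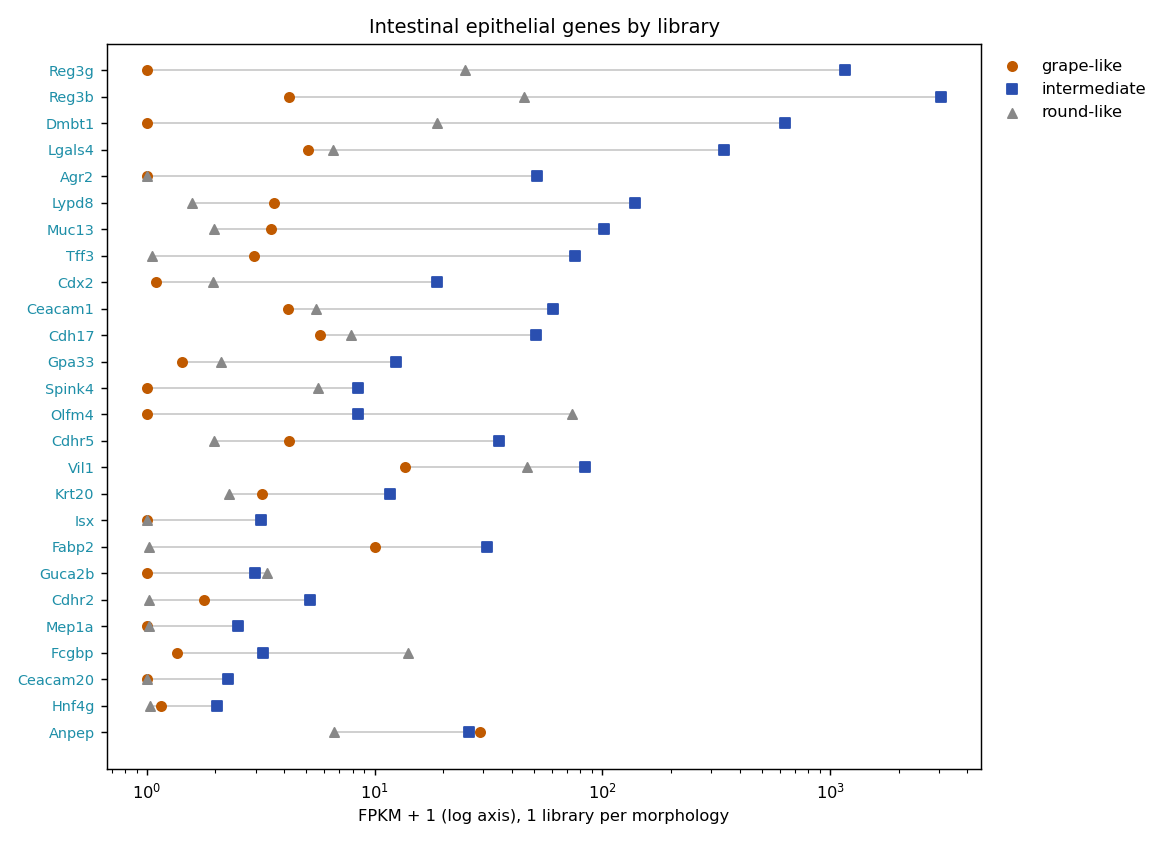
FPKM + 1 (x axis, log scale; a value of 1 is 0 FPKM) of the 26 intestinal epithelial genes past 1 FPKM, in order of their log2 ratio, by library. All but Anpep were higher in the intermediate than in the grape-like library. Most were lower in the round-like than in the intermediate library, with Olfm4, Guca2b and Fcgbp as exceptions. The round-like level lay between the others for 14 genes, below both for 9 and above both for 3.

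Division genes stayed within 2-fold. All 35 passed 1 FPKM, none was called, and the median log2 ratio was 0.10. Pcna, the sliding clamp of replication, was at 196 against 135 FPKM (log2 ratio 0.53), Mki67 at 34.3 against 21.9 FPKM (log2 ratio 0.63) and Top2a at 54.2 against 48.6 FPKM (log2 ratio 0.15). The mitotic activator Cdc20 was at 23.3 against 43.4 FPKM (log2 ratio -0.87). All 35 were higher in the round-like library than in either of these.

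Signalling genes were counted by pathway. Of 12 Notch genes past the limit 0 were higher and 3 lower, among them Sox9, which marks ducts, and the ligand Dll1 (1.12 against 3.25 FPKM). The target Hes1 was at 17.4 against 30.5 FPKM (log2 ratio -0.78). Of 14 Wnt targets 3 were higher and 6 lower. Rnf43, Sp5 (0.893 against 5.01 FPKM, log2 ratio -1.67), Lgr5 and Axin2 were lower, while Nkd1 (24.6 against 4.93 FPKM, log2 ratio 2.11), Apcdd1 (1.83 against 0.13 FPKM, log2 ratio 1.33) and Ascl2 (4.42 against 1.71 FPKM, log2 ratio 1.00) were higher. YAP targets split as well (2 higher and 4 lower of 15), with F3 (1.28 against 8.37 FPKM, log2 ratio -2.04), Ccn2 (4.22 against 19.4 FPKM, log2 ratio -1.96) and Ankrd1 (9.14 against 24.8 FPKM, log2 ratio -1.35) lower. Axl (103 against 22.6 FPKM, log2 ratio 2.14) and Fstl1 (51.8 against 13.1 FPKM, log2 ratio 1.90), which macrophages and fibroblasts express, were higher.

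Several counts of the stress lists lay near the shares of all genes, which were 9.94% higher and 7.32% lower. Among immediate early and heat shock genes 0 of 24 were higher and 2 lower (8.33%). These were Egr1 (83.8 against 219 FPKM, log2 ratio -1.38) and Ier2 (53.6 against 109 FPKM, log2 ratio -1.01). The chaperone Hspa8 was at 533 against 639 FPKM (log2 ratio -0.26). Genes of the unfolded protein and integrated stress responses had 0 higher and 3 lower of 17 (17.6%). These were Phgdh (17.5 against 48.4 FPKM, log2 ratio -1.42), Xbp1 (141 against 344 FPKM, log2 ratio -1.28) and Psat1 (37.7 against 85.6 FPKM, log2 ratio -1.16). The abundant chaperone Calr was at 645 against 874 FPKM (log2 ratio -0.44). Of 17 p53 and inhibitor genes 1 was higher (5.88%), Sesn1 (24.8 against 11.7 FPKM, log2 ratio 1.02), and Cdkn2b was at 12.8 against 20.6 FPKM (log2 ratio -0.64). NRF2 targets were 2 higher (8.7%) and 6 lower (26.1%) of 23. Ftl1 and Hmox1 (252 against 99.9 FPKM, log2 ratio 1.32), of iron and haem handling, were higher, and Gsta1 (0.174 against 14.2 FPKM, log2 ratio -3.70), Gpx2 (3.46 against 51.5 FPKM, log2 ratio -3.56), Gsta4 and Osgin1 (-1.29) were lower. Interferon-stimulated genes were 2 higher (9.09%, near the share of all genes) and 0 lower of 22. Ifi27l2a was at 65.3 against 24.4 FPKM (log2 ratio 1.38), Bst2 at 287 against 204 FPKM (log2 ratio 0.49) and Ifi35 at 26.2 against 32 FPKM (log2 ratio -0.28).

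Ribosomal and reference genes stayed within 2-fold. All 26 cytosolic ribosomal genes were uncalled with a median of -0.30, from Rplp0 (477 against 789 FPKM, log2 ratio -0.72) to Rps14 (0.02), and all 15 reference genes were uncalled, from Gapdh (-0.71) to Gusb (0.86), with Eef1a1 at 4348 against 5968 FPKM (log2 ratio -0.46). The mitochondrially encoded genes took 3.33% and 2.91% of the summed FPKM, and 1 was higher and 5 lower of 13. COX1 was at 5026 against 4633 FPKM (log2 ratio 0.12). ATP6, COX3, ND3 and ND4L were listed far below COX1 in both libraries (COX3 at 10.2 against 59.6 FPKM), and these genes have copies in the nuclear genome that can take reads, so their ratios are uncertain.

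The round-like library placed the groups of genes in different positions. Of the 71 hepatocyte genes lower in the grape-like library, 27 had a round-like level below both others, 32 lay between and 12 above both. The intermediate library held the highest level of 59, an order partly fixed because the 71 were picked for a higher level there than in the grape-like library. Of the 23 hepatocyte genes higher in the grape-like library, 17 were lower again in the round-like library and 6 lay between. Their order in the grape-like and intermediate libraries was likewise fixed by the choice. Of the plasma proteins 23 of 27 were lowest in the round-like library, with summed levels of 10523, 21379 and 3761 FPKM. Coagulation and complement genes were lowest there in 20 of 23 cases. Of the P450 enzymes 18 of 21 were lowest there, with sums of 721, 677 and 95.5 FPKM. Of the transcription factors 8 of 22 were lowest in the round-like library and 11 lay between.

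Of the 35 cholangiocyte and junction genes lower in the grape-like library, 19 were higher still in the round-like library, 14 lay between and 2 were below both. The 66 macrophage genes higher in the grape-like library were below both others in the round-like library in 57 cases, with the summed macrophage markers at 20645, 7473 and 4249 FPKM over the 3 shapes. The 16 endothelial genes were below both in 15 cases and the 29 mesenchymal genes in 20. These macrophage, endothelial and mesenchymal genes were picked for a higher level in the grape-like than in the intermediate library. The cholangiocyte and junction genes were picked for a lower one. That part of the order was therefore fixed by the choice in all of these groups. The number of cells of each type in the pools was not measured.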

How the data were processed

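RNA of picked Hep-Orgs was read as 1 library for each of 3 shapes. The study's methods describe Smart-Seq with amplification of full-length cDNA, whereas the protocol in the labels, which is the same for all samples, describes poly(A) libraries. The authors deposited FPKM per gene symbol. The submitters' processing notes name featureCounts 2.0.3, edgeR 3.40.2 and build mm10, and the methods state 1 scaling factor per library. The aligner and annotation release are not given in the sources used here. A gene was compared if it reached an FPKM of 1 in the grape-like or the intermediate library. Its log2 ratio was taken after 1 was added to each FPKM, and no test was made, since each shape had 1 library. Columns were assigned by the name in the labels.

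Genes were grouped by 15 hepatocyte lists, 14 lists of other liver and blood cells and 13 lists of cell states, plus 2 lists (intestinal and pancreatic genes) added later. The members and lists were chosen with earlier results of these data known. From each list the text names first the genes of highest FPKM (up to 4) and of largest ratio (up to 3 in each direction), and from all genes the 15 of largest ratio in each direction, passing over predicted genes and pseudogenes. A few further markers were named after their values were seen. Some genes that this rule names are not reported here, although the counts include them.

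Depth was estimated from genes of 1 exon in GENCODE M21, whose FPKM times length is a multiple of 1 step per library. Of the values under 30 fragments, 64.8% to 73.4% came within 0.05 of a whole number. Fragments of other genes were approximated with M21 exon lengths. Gene and promoter positions are those of RefSeq for GRCm38.p6. Calculations used Python 3.11.15 with pandas 2.3.3, numpy 2.4.6, scipy 1.17.1 and matplotlib 3.10.9, and the calls were checked on simulated data. The tables of the other experiments were normalized separately and were not used here.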

Additional observations from a re-analysis of the deposited data

How the results depend on the processing

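For hepatocyte, cholangiocyte, macrophage, endothelial and mesenchymal genes the side with more calls was the same under every scaling, pseudocount and filter tried, and no list median or named gene with a log2 ratio past 1 in size changed sign. A pseudocount of 5 left 517 genes higher and 427 lower, with 10 hepatocyte, 4 endothelial and 2 blood genes higher and 2 blood genes lower. A pseudocount of 0.1 gave 12 blood genes higher and 1 endothelial gene lower. Rescaling to TPM, which lowers the effective pseudocount and filter and also moved the median log2 ratio of all genes from 0.04 to 0.14, gave 1917 genes and 11 blood genes higher. The parts of these changes were not tested. Under median-ratio scaling 1 endothelial and 2 mesenchymal genes were lower. With the limit at 5 FPKM 3 blood genes were lower. With a log2 ratio of at least 2 there were 78 genes higher and 192 lower. Under that limit 2 hepatocyte, 12 macrophage, 0 endothelial, 11 mesenchymal and 1 blood genes were higher, and 8 hepatocyte, 19 cholangiocyte, 0 macrophage and 2 blood genes were lower. The median of P450 enzymes, near 0, changed sign at the 5 FPKM limit and under median-ratio scaling, and that of fetal genes at the 5 FPKM limit.

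No paired analysis was possible because each shape had 1 library and no test was made. Leaving out a library would leave no comparison. The spread between organoids of a shape is unknown. By the estimated depth Gls2, at 0.281 against 1.01 FPKM, rested on about 39 against 141 fragments. Counting error weighs more in such genes than in abundant ones.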
